A study of Mus musculus with 4 samples.

Results

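Pol II occupancy was compared between the shSpt5 and shSpt4 libraries, 2 of the 4 libraries of the series, with 1 library on each side. They were chosen by the knockdown named in the labels and by the flow cell that both came from. Both came from V6.5 mouse embryonic stem cells (C57BL/6-129) infected with a short hairpin RNA against Spt5 or Spt4 for about 4 days, treated with 1 µM flavopiridol for 1 h and grown for 2 passages without feeder cells. The antibody is directed at the N-terminus of Rpb1 and so does not depend on the phosphorylation of the repeat tail at its other end. Beside the pair, values are given for shNelfE, treated alike and run on the same flow cell, and for shControl, which was run on a different flow cell after 1 passage off feeders. No group without flavopiridol was analysed here, so every value describes cells in which that drug was present. A single hairpin stood for each gene, the RNA and protein of Spt5 and Spt4 were not measured, and the extent of each knockdown is therefore unknown. With 1 library per side no difference has a replicate check, and all intervals below cover counting error only.

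Spt5 and Spt4 are the subunits of DSIF, a factor that joins RNA polymerase II soon after initiation. Spt5 is the large subunit, which contacts the polymerase through several domains and carries a repeat region that the kinase Cdk9 phosphorylates. Spt4 is a small zinc-binding protein that binds Spt5. Together with NELF, DSIF holds Pol II in the promoter-proximal pause, and phosphorylation by Cdk9 releases it. Flavopiridol inhibits Cdk9, so the comparison asks how far Pol II that is kept at the pause depends on the large as against the small subunit.

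The shSpt5 library held 3116313 kept tags and the shSpt4 library 2646944, a tag being 1 aligned read position per strand. Before that reduction 17.7% of reads in shSpt5 and 8.13% in shSpt4 repeated a position. At equal reads the shares were 14.0% and 8.13%, so most of the difference was there at equal depth too. Repeats were more frequent in shSpt5 both inside the enriched regions (20.5% against 12.2%) and outside them (17.3% against 7.25%). With all reads kept in place of 1 per position, the median region ratio given next was 0.714 in place of 0.725. The strand offset, which follows fragment length, was 86 bp in shSpt5 and 87 bp in shSpt4. Reads of the second category made up 6.96% in each library.

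As shares of all kept tags, tags were fewer in shSpt5 than in shSpt4 at the enriched regions and more numerous far from them. A lower share inside regions entails a higher share outside them, so these directions are not independent. Regions were called on the 4 libraries together (coordinates on mouse build mm8, for which no gene annotation was used here). They numbered 13771, with a median width of 700 bp, and 5 of them lay on the mitochondrial genome. The regions held 12.3% of tags in shSpt5 (95% interval 12.2 to 12.3%) and 16.9% in shSpt4 (16.9 to 17.0%). The ratio of these shares was 0.726 (0.723 to 0.729). The shares were 15.5% in shNelfE and 20.4% in shControl, so shSpt5 had the lowest of the 4. In the 608 windows of 1 Mb that no region touched, the same scaling to total kept tags gave a ratio of 1.17 (1.16 to 1.18), and 96.9% of the 580 such windows with at least 100 tags had a ratio above 1. When these windows were set equal, the ratio in regions fell to 0.621 (0.619 to 0.624). What the knockdowns and what the 2 immunoprecipitations and libraries contribute to these ratios cannot be told apart with 1 library per side.

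The reduction was present at regions of every level. The median region held 6.04 normalised tags (tags per 1000000 kept tags) in shSpt4 (quartiles 2.64 and 15.9) and 4.49 in shSpt5 (1.93 and 11.6). By total tags the median ratio of shSpt5 to shSpt4 was 0.725, with quartiles of 0.533 and 0.995, and 75.3% of regions lay below 1. By windows without regions it was 0.620, with quartiles of 0.456 and 0.851, and 83.5% lay below 1. A region was called lower or higher when its ratio was at most 0.5 or at least 2 and its exact 95% interval left out 1. By total tags 1708 regions were called lower, or 12.4% of all regions, and 145 higher, or 1.05%. By windows without regions 2763 were called lower, or 20.1%, and 63 higher, or 0.457%. The scaling by windows lowers every ratio and its interval by the same factor. The 1708 lower calls by total tags are therefore necessarily among those by windows, and the 63 higher calls by windows among the 145. Scaled to the median region instead, 625 regions were called lower and 490 higher, so relative to the typical region the calls were much less one-sided.

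**Figure D1:**
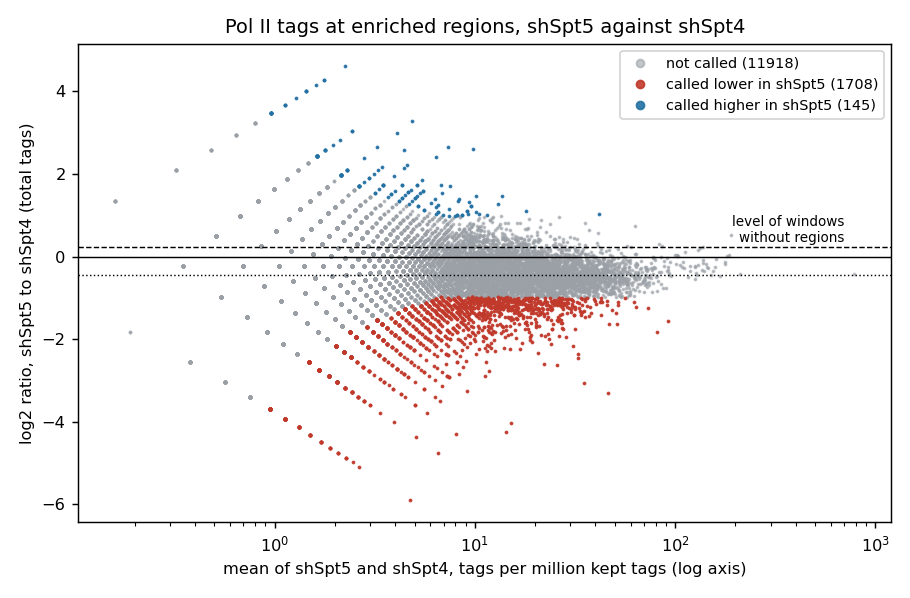
Each point is 1 of 13771 enriched regions: the horizontal log axis gives the mean of the shSpt5 and shSpt4 levels in tags per 1000000 kept tags, and the vertical axis the log2 ratio of shSpt5 to shSpt4 scaled to total kept tags. The solid line marks equal levels, the dotted line the median region (log2 -0.46) and the dashed line the windows without regions (ratio 1.17); most of the cloud lies below the solid line across the range of levels, with 1708 lower and 145 higher calls.

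Grouping regions by their level in shNelfE and shControl, libraries that are not compared, gave reductions of like size. In the 4 quartile classes from lowest to highest, the summed tags had ratios by total tags of 0.760 (0.744 to 0.776), 0.757 (0.746 to 0.768), 0.744 (0.737 to 0.751) and 0.715 (0.711 to 0.718). The 138 regions in the top hundredth stood at 0.771 (0.760 to 0.782), above the highest quartile that contains them. Lower calls made up 7.45%, 12.8%, 17.5% and 11.9% of the 4 classes, against 12.4% of all regions, and higher calls 1.78%, 1.62%, 0.726% and 0.0871%, against 1.05%. In the lowest class the median region held 1.89 normalised tags in shSpt4 and 1.28 in shSpt5. A call needs an interval that leaves out 1, so these shares depend on tag counts as well as on ratios. Regions whose summit stood alone within 20 kb had a summed ratio of 0.718 (0.713 to 0.722), and those with another summit within 5 kb 0.749 (0.740 to 0.758). The 4271 widest regions had 0.716 (0.713 to 0.720) and the 4948 narrowest 0.740 (0.728 to 0.752). Taking off the density of windows without regions left the window-scaled ratio of all regions at 0.617 (0.614 to 0.620), since background of that kind was 1.71% of region tags in shSpt5 and 1.06% in shSpt4.

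Regions differed from each other by more than counting error. Among 5138 regions with 50 tags or more in shSpt5 and shSpt4 together, the SD of the log2 ratio was 0.50 where counting error alone amounts to 0.30, which leaves 0.40 beyond counting. The same values for shNelfE against shSpt4 were 0.44, 0.30 and 0.32, and these comparisons share the shSpt4 library. Reads of the opposite strands gave a check within the libraries. Of the 1222 regions called lower from plus-strand tags alone, 94.2% had a minus-strand ratio below 1, against 73.1% of all regions, and their median minus-strand ratio was 0.498, against 0.737. Of the 58 called higher from plus-strand tags, 72.4% had a minus-strand ratio above 1, against 26.9% of all regions, with a median of 1.55. On the strand that had not chosen them, the lower regions therefore kept a median close to the 0.5 of a call, and the higher ones fell short of 2.

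Fewer regions exceeded background in shSpt5. At a Poisson p of 0.001 against the density of windows without regions, 88.5% of regions exceeded background in shSpt5 and 94.7% in shSpt4. There were 1376 regions above background in shSpt4 and not in shSpt5, and 517 the other way round. The former had a median of 6 tags in shSpt4 and 2 in shSpt5, with a largest shSpt4 count of 72 at chr3:41709950-41711499. Of them 92.8% exceeded background in shNelfE, against 96.7% of all regions. No tag of shSpt5 fell in 153 regions that had tags in shSpt4, and no tag of shSpt4 in 54 that had tags in shSpt5. The largest count facing such a 0 was 25 tags in shSpt4, at chr9:114538900-114539299, with 10 tags in shNelfE and 14 in shControl. With the 0 of shSpt5 set to 3 tags, shSpt5 was 9.81-fold lower there. That value leaves out the counting error of the 25 tags in shSpt4, so it is not a lower bound.

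The shSpt5 library was lowest against shSpt4 at the summits, and where the ratio reached 1 depended on the scaling. Over all tags of the autosomes and X, the ratio by total tags was 0.692 (0.688 to 0.696) within 150 bp of the nearest summit, from 200773 tags in shSpt5 and 246443 in shSpt4. It was 0.803 (0.797 to 0.809) at 150 to 500 bp, 0.794 (0.787 to 0.802) at 0.5 to 1 kb and 0.926 (0.917 to 0.935) at 1 to 2 kb. From 2 kb to 100 kb it was level, between 1.02 and 1.03 in each of 5 bins. By windows without regions it was 0.592 (0.588 to 0.595) within 150 bp, between 0.871 and 0.879 from 2 kb to 100 kb, and 1.01 (1.00 to 1.01) beyond 500 kb, so shSpt5 lay above shSpt4 between 2 and 100 kb by the first scaling and below it by the second. By total tags the ratio rose again beyond 100 kb, to 1.08 (1.07 to 1.08) at 100 to 200 kb, 1.12 (1.12 to 1.13) at 200 to 500 kb and 1.18 (1.17 to 1.18) farther away. The ratio of shNelfE to shSpt4 went from 0.905 at the summits to 1.06 (1.06 to 1.07) at 5 to 10 kb and fell to 0.960 (0.955 to 0.965) beyond 500 kb, and both ratios share the shSpt4 library. Scaled to tags 10 to 20 kb from isolated summits, 1821 regions were called lower and 108 higher.

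**Figure D2:**
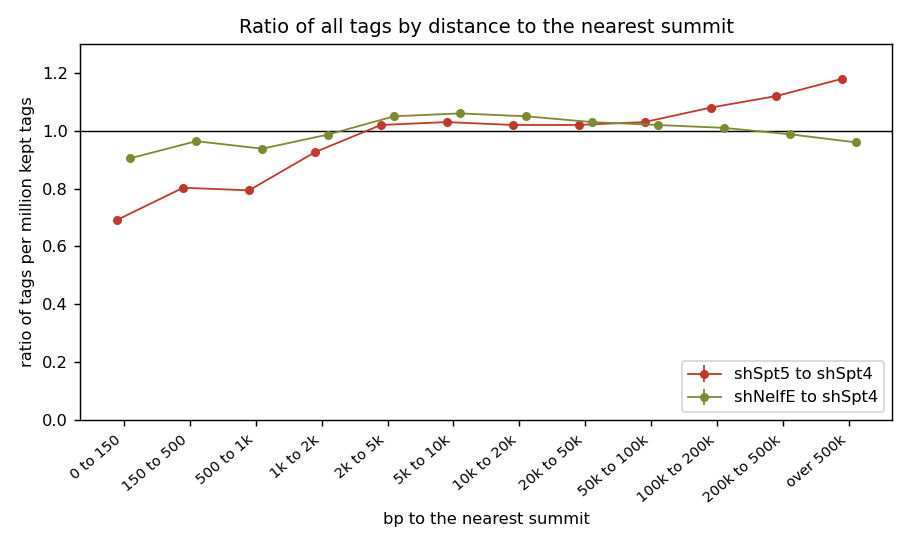
Ratios of tags per 1000000 kept tags (vertical axis) for all tags of the autosomes and X, in bins of distance to the nearest summit in bp (horizontal axis, k for kb), with 95% counting intervals that are mostly smaller than the points. The shSpt5 to shSpt4 ratio rises from 0.692 at the summits to a level stretch near 1.02 and on to 1.18 beyond 500 kb, and the shNelfE to shSpt4 ratio runs from 0.905 to 0.960 with its highest value of 1.06 between.

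At isolated regions the shape of the Pol II signal could be followed without neighbours. Within 150 bp of 7564 isolated summits shSpt5 had 100702 tags and shSpt4 124768, a ratio of 0.686 (0.680 to 0.691) by total tags. At 1 to 2 kb on both sides the counts were 40531 and 37311, a ratio of 0.923 (0.910 to 0.936). With the density of windows without regions taken off and the windows set equal, the ratios were 0.583 (0.578 to 0.588) at the centre and 0.744 (0.731 to 0.757) in the flank. The centre ratio divided by the flank ratio was then 0.784 (0.768 to 0.799), and 0.832 (0.806 to 0.860) when the density 10 to 20 kb away was taken off in place of the windows. Of the tags within 500 bp of a summit, 57.6% lay in the central 150 bp on each side in shSpt5 (57.4 to 57.8%) and 61.2% in shSpt4 (61.0 to 61.4%), against 59.7% in shNelfE and 61.3% in shControl. The signal of shSpt5 was thus both lower and less concentrated at its summit.

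The 2 flanks of a region differed between the libraries to different degrees. In place of an annotated direction of transcription, each isolated region was turned so that the side with more tags at 1 to 5 kb in shNelfE and shControl lay to the right, which was possible at 7195 regions. Close to the summit both sides were alike, with background-free ratios of 0.587 (0.579 to 0.594) on the heavier and 0.576 (0.569 to 0.583) on the lighter side within 150 bp. At 0.5 to 1 kb they were 0.646 (0.634 to 0.658) and 0.669 (0.654 to 0.684). At 1 to 2 kb they parted, at 0.698 (0.683 to 0.713) on the heavier and 0.828 (0.802 to 0.855) on the lighter side. Over 1 to 5 kb shSpt5 had 65928 tags and shSpt4 59452 on the heavier side, with a ratio of 0.942 (0.932 to 0.952) by total tags and a background-free ratio of 0.754 (0.743 to 0.765). On the lighter side they had 47514 and 38274, with 1.05 (1.04 to 1.07) and 0.854 (0.837 to 0.872). The heavier side held 58.1% of these flank tags in shSpt5 (57.8 to 58.4%) and 60.8% in shSpt4 (60.5 to 61.1%), so the excess of that side was smaller in shSpt5. The heavier ratio over the lighter one was 0.882 (0.861 to 0.905). With the density 10 to 20 kb away taken off it was 0.465 (0.353 to 0.611), because the lighter side then kept only 3296 tags above that background in shSpt5 and 1607 in shSpt4, a ratio of 1.49 (1.14 to 1.96). The direction of the lighter flank therefore depends on the scaling and on the background. The heavier flank over 1 to 5 kb was below 1 by total tags and under both backgrounds, with 0.692 (0.671 to 0.714) under the second, but its part at 2 to 5 kb stood at 0.993 (0.979 to 1.01) by total tags.

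**Figure D3:**
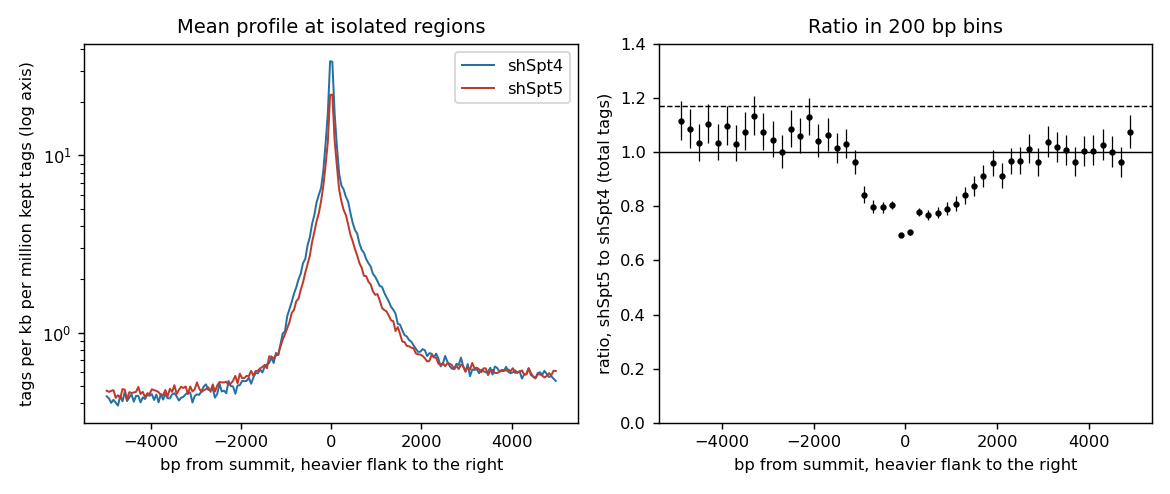
Mean profiles over 7195 isolated regions turned so that the heavier flank lies to the right: on the left, tags per kb per 1000000 kept tags (log axis) against bp from the summit in bins of 50 bp for shSpt5 and shSpt4, and on the right their ratio in bins of 200 bp with 95% counting intervals. The solid line marks a ratio of 1 and the dashed line the 1.17 of windows without regions; the ratio is lowest at the summit and returns to about 1 nearer to the summit on the lighter side than on the heavier side.

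Median region ratios by total tags ran from 0.695 on chromosomes 9 and 17 to 0.760 on chromosome 11 among autosomes, and the median on X was 0.668. On X, 18.8% of the 378 regions were called lower, against 12.2% of autosomal ones and 12.4% of all. The summed ratio of X regions was 0.667 (0.646 to 0.687) and that of autosomal ones 0.726 (0.723 to 0.729). Windows without regions on X had a ratio of 1.16 (1.13 to 1.19), within the autosomal range of 1.12 to 1.21. The median X region held 4.17 normalised tags in shSpt5 and 6.23 in shSpt4, beside 5.11 in shNelfE and 6.62 in shControl. The median autosomal region held 4.49, 6.04, 6.13 and 8.20 in that order. On X the level of shSpt4 thus stood above that of shNelfE, while on autosomes it stood just below. The mitochondrial genome, which Pol II does not transcribe, had 2056 tags in shSpt5 and 1323 in shSpt4, a ratio of 1.32 (1.23 to 1.42) by total tags and 1.13 (1.05 to 1.21) by windows.

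**Figure D4:**
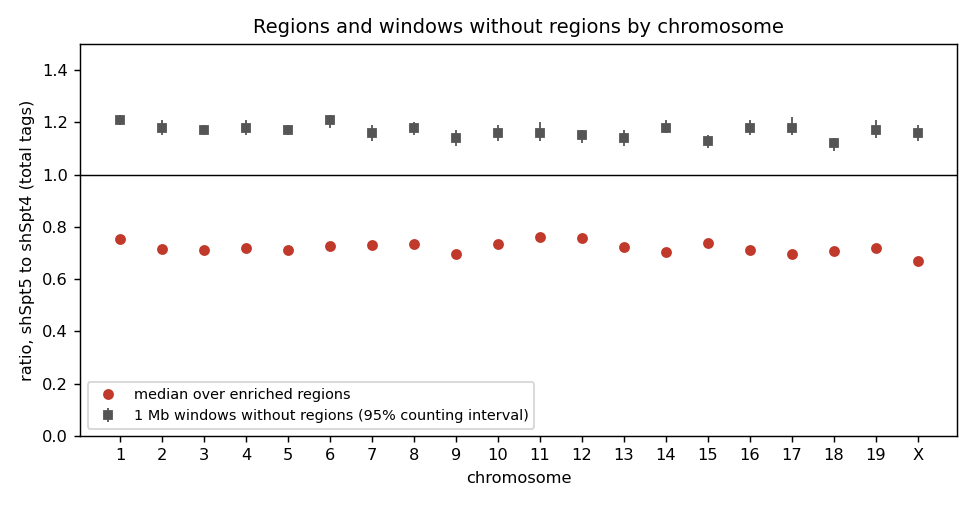
For each chromosome, the ratio of shSpt5 to shSpt4 by total tags in 1 Mb windows without regions (squares, with 95% counting intervals) and the median ratio over its enriched regions (circles). All windows lie above 1, from 1.12 to 1.21, and all region medians below it, with X lowest at 0.668.

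The 10 regions with most tags in shNelfE and shControl were lower in shSpt5 or near its equal, and none was called. Their ratios by total tags ran from 0.686 to 1.03 with a median of 0.789, and 8 of 10 were below 1, against 75.3% of all regions. Lower calls by total tags made up 12.4% of all regions and 5.07% of the top hundredth of occupancy. By windows without regions all 10 were below 1, from 0.587 to 0.884, against 83.5% of all regions. These counts lie near those shares and do not set the 10 regions apart. The first, chr17:39451100-39454749, held 670 normalised tags in shSpt5 and 900 in shSpt4, beside 975 in shNelfE and 1130 in shControl, a ratio of 0.745 (0.702 to 0.790). Keeping 1 tag per signed position caps so dense a region, where shSpt5 filled 28.6% of the positions, and with all reads kept its ratio was 0.713. Next to it, chr17:39456000-39456949 held 180, 242, 276 and 285 in the same order, a ratio of 0.742 (0.661 to 0.832), with 29.5% of positions filled in shSpt5. Whether tags at either chr17 region come from a repeated sequence was not tested. The lowest of the 10 was chr1:88357100-88360199, with 103, 150, 166 and 208 and a ratio of 0.686 (0.590 to 0.797).

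Regions on chromosome 13 stood highest among these 10. At chr13:23745950-23747599 the level was 188 normalised tags in shSpt5 and 182 in shSpt4, beside 221 in shNelfE and 190 in shControl, a ratio of 1.03 (0.914 to 1.17). At chr13:23562200-23563699 it was 182, 181, 171 and 177, a ratio of 1.01 (0.892 to 1.14), so all 4 libraries lay close together there. By windows these ratios were 0.884 (0.782 to 0.999) and 0.863 (0.763 to 0.977), so whether Pol II was level or lower at them depends on the scaling. The regions on chromosome 10 (chr10:39946850-39948549, 0.910, 0.803 to 1.03) and chromosome 5 (chr5:115750100-115751849, 0.875, 0.772 to 0.992) came next. The region at chr6:124706100-124707399, with 195 normalised tags in shSpt4 and 141 in shSpt5, had 0.724 (0.636 to 0.824). The remaining regions were chr8:87551550-87553249 at 0.733 (0.639 to 0.840) and chr1:72187750-72189299 at 0.833 (0.729 to 0.951). The latter fell to 0.747 (0.683 to 0.818) with all reads kept.

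Of the 5138 regions with 50 or more tags in the pair, 616 were called lower and 18 higher by total tags, where 1708 and 145 of all 13771 regions were. The 10 lower regions described next are those whose interval ended farthest below 1, and their ratios, given as a description of extremes, ran from 0.0472 to 0.192 with a median of 0.134. All 10 had a ratio of at most 0.5 on each strand separately. Their calls also hold by windows, as every lower call by total tags must. In all 10, shSpt5 was the lowest of the 4 libraries and shNelfE lay nearer to shSpt4 than to shSpt5. Over all regions these held at 58.6% and 58.2% by total tags. The choice of low shSpt5 and high shSpt4 counts largely sets this order and the strand ratios, so nothing is read from them.

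The lowest was chr3:41709950-41711499, with 4 tags in shSpt5 and 72 in shSpt4 (ratio 0.0472, 0.0125 to 0.126), beside 63 in shNelfE and 106 in shControl. It was the only one of the 10 at which shSpt5 did not exceed background. At chr13:44913350-44914449 shSpt5 had 5 tags, shSpt4 76, shNelfE 149 and shControl 335, so that shSpt4 too lay below shNelfE and shControl there (0.0559, 0.0176 to 0.136). At chr9:64973100-64973999 the counts were 26 in shSpt5, 224 in shSpt4, 148 in shNelfE and 248 in shControl (0.0986, 0.0630 to 0.148). Plus and minus tags were 13 and 13 in shSpt5 against 120 and 104 in shSpt4 at that region. At chr4:153786550-153787399 the levels of shSpt4, shNelfE and shControl were 63.1, 57.2 and 58.0 normalised tags and that of shSpt5 was 7.38, so that shSpt5 stood apart from the other 3 (0.117, 0.0722 to 0.182).

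The other 6 had the same arrangement. On chromosome 2, chr2:153090800-153092849 had 22 tags in shSpt5 and 118 in shSpt4 (0.158, 0.0956 to 0.251). A region at chr9:114357300-114359149 had 19 and 101 (0.160, 0.0924 to 0.263), with 158 in shNelfE, the highest of the 4 libraries. On X, chrX:165330650-165332049 had 31 and 146 (0.180, 0.118 to 0.267). These were followed by chr12:81797400-81798499 with 8 and 53, chr1:91761150-91762799 with 33 and 146, and chr13:57331300-57332049 with 9 and 55. At the last of these shSpt4, shNelfE and shControl held 20.8, 21.1 and 19.2 normalised tags, and shSpt5 2.89.

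Over all 1708 regions called lower, the median level was 3.21 normalised tags in shSpt5 and 9.82 in shSpt4, beside 7.49 in shNelfE and 10.1 in shControl. The shNelfE level was nearer to shSpt4 than to shSpt5 at 76.0% of them, and shSpt5 was the lowest of the 4 libraries at 95.1%. The call picks low counts of shSpt5 and high counts of shSpt4, which also moves where shNelfE and shControl fall, so these shares describe the called regions and nothing is read from them.

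At the 145 regions called higher the median level was 5.78 normalised tags in shSpt5 and 1.51 in shSpt4, beside 3.06 in shNelfE and 4.42 in shControl. The shSpt4 library was the lowest of the 4 at 82.1% of them, a share that the choice of regions with low shSpt4 counts largely sets. Of the 145, 127 held fewer than 50 tags in the pair and 18 held 50 or more, where 5138 of all 13771 regions held 50 or more.

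The 10 higher regions whose interval began farthest above 1 had ratios from 2.04 to 6.43 with a median of 2.51. Of these, 8 kept their call under scaling by windows, 7 had a ratio of at least 2 on each strand, and shControl exceeded shSpt4 at all 10. The median of all regions was also higher in shControl, at 8.20 normalised tags against 6.04 in shSpt4. The choice of high shSpt5 and low shSpt4 counts largely sets these strand ratios and this order, so nothing is read from them. The highest was chr6:4696950-4697949, with 53 tags in shSpt5 and 7 in shSpt4 (6.43, 2.91 to 16.8), beside 13 in shNelfE and 23 in shControl. There shSpt5 exceeded every other library, and its plus and minus tags were 27 and 26. At chr5:119930850-119931899 the levels were 20.2 normalised tags in shSpt5, 7.18 in shSpt4, 18.4 in shNelfE and 35.6 in shControl, so that shSpt4 was the lowest and shControl the highest of the 4 (2.82, 1.66 to 4.98). At chr1:71585700-71587199, the most occupied of the 10, they were 56.2, 27.6, 32.0 and 42.0 (2.04, 1.54 to 2.71), and by windows its ratio of 1.74 (1.32 to 2.32) was no longer a call. The region chr1:72144150-72145749, with 77 and 30 tags (2.18, 1.41 to 3.44), lost its call in the same way at 1.86 (1.21 to 2.95).

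At 6 of these 10 regions shSpt5 was the highest of the 4 libraries, and at 8 shSpt4 was the lowest. By total tags shSpt4 was the lowest at 15.9% of all regions and at 82.1% of those called higher. The choice of these regions by their shSpt5 and shSpt4 counts largely sets this order, so nothing is read from it. At chr8:47473750-47474649 shSpt5 had 47 tags and shSpt4 14, with 13 in shNelfE and 35 in shControl (2.85, 1.54 to 5.61). At chr7:29614750-29615349 they were 42, 15, 13 and 19 (2.38, 1.29 to 4.62), and here shNelfE, not shSpt4, had the lowest level. At chr15:78855350-78856249 the counts were 58 and 20 (2.46, 1.46 to 4.32), and at chr3:63383100-63384349 38 and 12 (2.69, 1.38 to 5.65). At chr11:106828400-106829099 shSpt5, shNelfE and shControl held 13.5, 12.9 and 12.6 normalised tags and shSpt4 5.29 (2.55, 1.36 to 5.05). The last, chr5:110375650-110376649, had 42 tags in shSpt5 and 15 in shSpt4, with 27 in shNelfE and 46 in shControl.

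**Figure D5:**
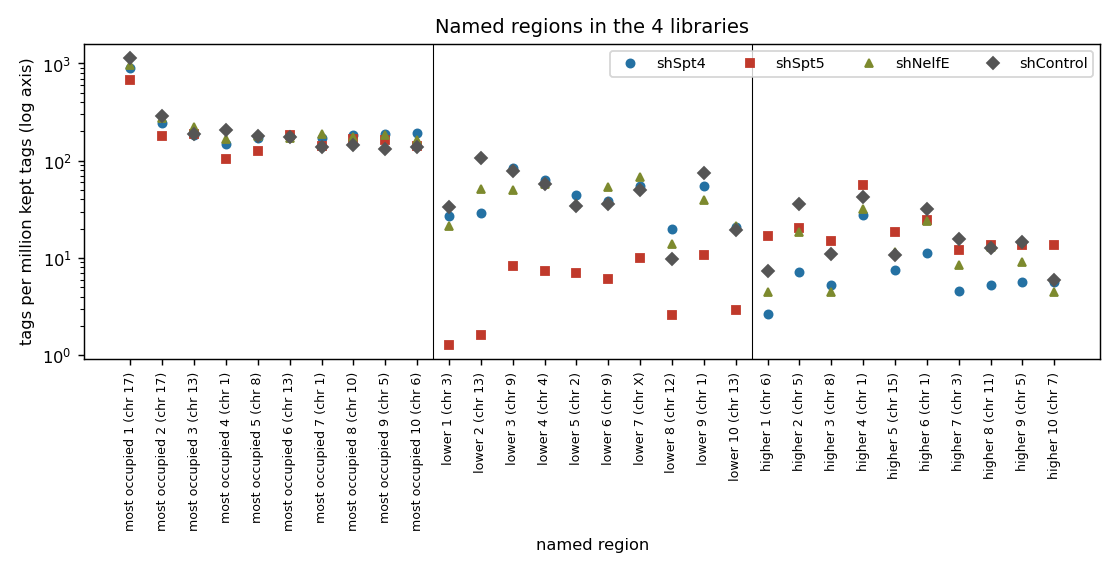
Levels in tags per 1000000 kept tags (log axis) of the 30 named regions in each of the 4 libraries, 1 point per library: the 10 most occupied regions on the left, 10 regions called lower in the middle and 10 called higher on the right. In the middle group shSpt5 lies below the other 3 libraries at all 10 regions, and in the right group shSpt4 is the lowest at 8 of 10. The choice of these regions by their shSpt5 and shSpt4 counts largely sets both orders.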

How the data were processed

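The authors deposited 1 signed genome position per aligned read (unit: other; the sign is the strand) with no normalization, per the file headers. Bowtie (-e 70 -k 2 -m 2 -n 2 -l 36) placed the reads on mm8, which the headers and the submitters' processing notes both name. The aligner version and any earlier removal of repeats are not given in the sources used here. Coordinates are the deposited mm8 numbers. No mm8 genome or annotation was used here, so no region has a gene name or sequence. The whole cell extract that the design text names was not analysed here.

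The first read category was used, with 1 tag per signed position, moved by 42 bp (strand offset 84 bp) toward the fragment. Regions came from the 4 libraries thinned to 2646944 tags each and pooled: windows of 250 bp on a 50 bp grid whose Poisson p was 1e-9 or less over both the genome density and the local density (5000 bp on each side without the nearest 1000), merged within 500 bp. Tags were scaled to total kept tags, or to 1 Mb grid windows that no region touches, without chromosomes Y and M. Ratios have exact conditional binomial (Clopper-Pearson) 95% intervals, and shares exact binomial ones. Ratios with background taken off have intervals from the counting variance on the log scale. Medians of ratios used a pseudocount of 0.5 tags. PCR reads are not independent molecules, so the true errors are larger. No p-value was computed across regions. Named regions, the 10 most occupied in shNelfE and shControl and the 10 lower and 10 higher calls with at least 50 tags whose interval lay farthest from 1, and all tests and lists were chosen with earlier results of these data known. Counting, calling and region finding were tested on simulated data. Python 3.11.15, numpy 2.4.6 and scipy 1.17.1 were used.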

Additional observations from a re-analysis of the deposited data

How the results depend on the processing

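Over the 7195 isolated regions turned by their heavier side, the lighter flank ratio turned from 0.854 to 1.49 with local background taken off. Lower calls by total tags (1708) became 625 when scaled by the median region ratio and 2859 with a fold of 1.5, and those by windows (2763) became 4427 with that fold. Higher calls by total tags (145) became 490 by the median region ratio, 77 with regions from shNelfE and shControl, 85 with regions from shSpt5 and shSpt4, 58 on the plus strand and 82 on the minus strand. Higher calls by windows (63) became 112 with all reads kept, 37 with regions from shNelfE and shControl, 30 on the plus strand and 38 on the minus strand. Strands hold fewer tags, and these region sets hold fewer regions (11182 and 9090). The ratio of the shares in regions (0.726) was 0.718 with all reads kept and 0.719 with regions from shNelfE and shControl, and the median region ratio (0.725) was 0.714 and 0.716. The ratio in windows without regions (1.17) was 1.16 with all reads kept, 1.16 with a region p of 1e-12, 1.16 with regions from shNelfE and shControl, 1.14 with regions from shSpt5 and shSpt4, 1.12 in windows of 200 kb and 1.18 as the median of window ratios. The centre ratio over the flank ratio (0.784) was 0.760 with all reads kept, 0.828 with a centre of 500 bp, 0.706 with a flank of 2 to 5 kb, 0.743 with no background taken off, 0.812 over all regions and 0.832 with local background taken off. The heavier over the lighter flank ratio (0.882) was 0.836 for sides of 1 to 2 kb, 0.929 for 2 to 10 kb, 0.828 at the 1749 regions with a clear heavier side and 0.465 with local background taken off. The cause of these moves was not tested. The last alternative of each shape result, the clear heavier side and the scaling by tags near isolated regions were chosen after seeing the data. Of the named regions, those on chromosome 13 turned below 1, chr13:23745950-23747599 to 0.884 by windows and 0.936 on the plus strand, and chr13:23562200-23563699 to 0.863 and 0.976. All 10 lower regions kept their call in the 5 alternatives run on them, of which the scaling by windows could not remove a lower call. Of the 10 higher regions, 8 kept it by windows, 8 on the plus strand, 7 on the minus strand and 9 with shSpt5 thinned to the depth of shSpt4. Leaving out a replicate was not possible with 1 library per group.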

Other observations

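The neighbourhood of the most occupied regions of chromosome 13 was lower in shSpt5 by less than the rest of that chromosome. It was looked at after the values of those regions had been seen, so it is a description of these libraries. Within 1 Mb of them lay 30 regions, and the 28 besides them held 2715 tags in shSpt5 and 2544 in shSpt4, a summed ratio of 0.906 (95% interval 0.858 to 0.957) by total tags and 0.775 (0.734 to 0.819) by windows without regions. The other 498 regions of chromosome 13 had 0.727 (0.710 to 0.744) and 0.622 (0.607 to 0.637). Of the 28 regions, 8 had a ratio above 1, 1 was called lower and none higher. Their summed level per 1000000 kept tags was 871 tags in shSpt5 and 961 in shSpt4, beside 913 in shNelfE and 822 in shControl, so shControl was the lowest of the 4 libraries there. Over the other regions of the chromosome it was the highest, at 6420 against 5640 in shSpt4, 4100 in shSpt5 and 5160 in shNelfE.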
